A study of Mus musculus with 9 samples.

Results

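Nearly every mitochondrial protein is made on cytosolic ribosomes and has to be carried into the organelle, and the organelle in turn fuses, divides and keeps its own DNA. The genes of that machinery were read here as ribosome footprints in striatal cells that carry normal or expanded huntingtin. Members were taken by name: every row of the count table whose symbol starts with Tomm or Timm followed by a number, and 11 further genes, namely Mfn1, Mfn2, Opa1, Dnm1l, Fis1, Mff, Phb, Phb2, Tfam, Polg and Ppargc1a. This gave 37 rows of 36410 in all, from genes on 18 chromosomes. Of these, 35 held enough counts to be tested. The others were Tomm20l, with at most 1 count in any library, and Tomm6os, an antisense transcript listed at 0 counts in all 9 libraries.

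Ribo-seq counts the mRNA fragments shielded by a ribosome. It was run on 3 lines of immortalized mouse striatal cells, called control, HD-het and HD-homo, with 3 libraries each. Their genotypes are STHdhQ7/Q7, STHdhQ7/Q111 and STHdhQ111/Q111. Q7 stands for a huntingtin (Htt) allele that codes for 7 glutamines and Q111 for a knock-in allele that codes for 111. The labels give strain C57/BL6 for each line, and cells of each line received cycloheximide, which stops elongating ribosomes, for 10 min before the RNA of the 80S monosome fraction was taken and sized on a gel to 26 to 32 nt. Each genotype was 1 cell line, so genotype and line cannot be told apart, and the labels do not say whether the libraries of a line came from separate cultures. The p-values then measure the spread between these libraries, which may be technical. Matched mRNA was not used here: more mRNA and more ribosomes per mRNA cannot be told apart in a footprint count.

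Proteins bound for mitochondria first meet the TOM complex of the outer membrane, in which Tomm20, Tomm22 and Tomm70a are receptors, Tomm40 forms the pore, and Tomm5, Tomm6 and Tomm7 are small subunits around it. Small TIM chaperones then guide hydrophobic cargo across the intermembrane space, the TIM22 complex inserts carrier proteins into the inner membrane, and the TIM23 complex with its motor draws cargo with a presequence into the matrix. Prohibitins form ring-shaped scaffolds in the inner membrane. Mitofusins and Opa1 fuse the membranes, and Dnm1l, recruited by adaptors such as Mff and Fis1, divides them. Tfam packages and transcribes mitochondrial DNA, Polg copies it, and Ppargc1a is a coactivator of nuclear genes for mitochondria. Mitochondrial defects are a long-studied feature of Huntington disease, which damages the striatum first.

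The machinery took a smaller share of the footprints in HD-het cells than in the other lines. Its members held 0.224% ± 0.00395 of all HD-het counts (SD, n = 3), beside 0.330% ± 0.0110 in control and 0.333% ± 0.00965 in HD-homo cells. Differences were tested by edgeR's quasi-likelihood test over all 12678 genes that passed the filter, with Benjamini-Hochberg adjustment and 0.05 as the threshold, and a gene past it is called higher or lower. In HD-het against control cells, 21 of the 35 tested members were lower, which is 60% of them, where 29.1% of all tested genes were lower. Only 3 members were higher, which is 8.57%, beside 31% of all tested genes. A fall of at least 2-fold was called in 6 members, beside 6.91% of tested genes, but with the offsets for GC content and coding length described further on it was called in Tomm22 alone, that is in 1 member, beside 6.07%. The libraries of the pair did not overlap in 27 members, 22 of them with HD-het below control, beside 71.2% of tested genes in either direction. The median log2 fold change of the members was -0.31, and that of all tested genes 0.02. With the offsets these medians were -0.04 and 0.02. Then 15 members were lower and 7 higher, beside 29.5% and 31.7% of all tested genes. The shares of all counts were taken without the offsets.

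In HD-homo against control cells, 4 members were higher and 5 were lower, that is 11.4% and 14.3%, beside 23.3% and 22.3% of all tested genes. The count of 5 fell to 3 without control 2 or without control 3. The libraries did not overlap in 14 members, beside 55.5% of tested genes, and the median log2 fold change was 0.00. In HD-homo against HD-het cells, 21 members were higher, beside 34.6% of tested genes, and 5 were lower, beside 32.8%. A rise of at least 2-fold was called in 10 of the 21, beside 11.1% of tested genes, and with the offsets again in Tomm22 alone, beside 10.6%. The libraries did not overlap in 24 members, beside 69.5%. These comparisons share libraries, so their counts are not independent of each other. A difference among the 3 lines in any direction was called in 28 of the 35 members, beside 78.4% of all tested genes, so the share of members that differed at all was near the background.

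**Figure D1:**
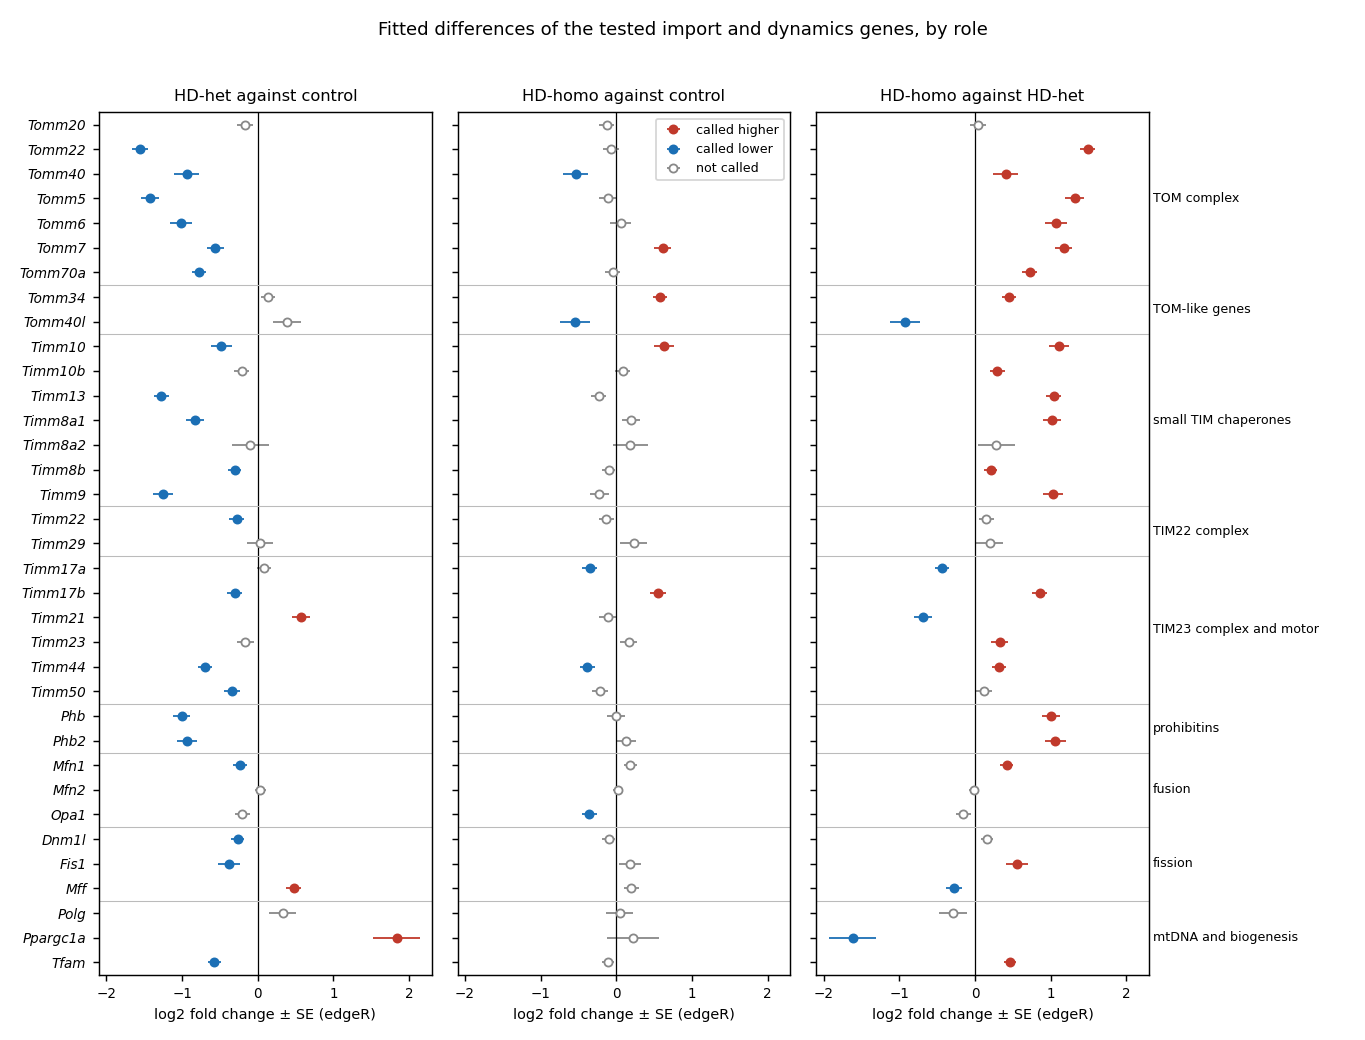
Log2 fold change with its standard error (x axis, edgeR) for each of the 35 tested members (y axis, grouped by role) in a panel for each pair of lines. Filled points are called higher (red) or lower (blue) and open points are not called. In the first panel 21 members are called lower, and in the last 21 are called higher.

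Library totals ran from 22504543 to 41888701 counts, and values are given as CPM, counts scaled to a TMM-adjusted library total of 1000000. A count of 3, up to which a true level may reach where 0 is counted, was worth between 0.0714 and 0.142 CPM, and this covers counting error only. The lines differed in markers as well. Drd1 and Drd2, the dopamine receptors that define striatal projection neurons, held no count in any library, whereas the precursor marker Vim averaged 9231 CPM in control, 8277 CPM in HD-het cells and 6198 CPM in HD-homo cells. The 8 precursor markers summed to 6017 to 6549 CPM in HD-homo libraries, beside 9597 to 9862 in control and 8993 to 9821 in HD-het libraries. Vim made up most of this sum in each line. Nes (400, 1086, 7.01), Sox2 (51.2, 33.9, 2.26) and Pax6 (17.3, 24.8, 0.0759) were lowest in HD-homo cells. Dlx1 (2.71, 1.83, 4.02) and Dlx2 (9.25, 2.11, 19.9) were instead highest there. The 6 fibroblast and mesenchymal markers, of which 5 reached 1 CPM in each line, summed to 16158 to 20512 CPM in HD-het libraries, beside 2606 to 4801 in control and 5420 to 6771 in HD-homo libraries. Most of that sum was Col1a1, which averaged 3344 CPM in control cells, 16522 CPM in HD-het cells and 4568 CPM in HD-homo cells. Col3a1 and Pdgfrb were likewise highest in HD-het cells, whereas Col1a2 and Dcn were highest in HD-homo cells, at 1027 and 40.6 CPM beside 88.9 and 11.5 in HD-het and 24.0 and 7.30 in control cells, and Thy1 had at most 1 count in any library. The 6 microglial markers, of which 1 or 2 reached 1 CPM, summed to 18.9 to 27.0 CPM in HD-het libraries, beside 5.00 to 6.84 in control and 4.82 to 6.21 in HD-homo libraries. This sum was nearly all Tmem119, with a mean of 21.2 CPM in HD-het cells, while Csf1r was highest in HD-homo cells at 1.06 CPM and Cx3cr1 held no count. These markers thus did not share an order of lines, and their part in the results was not tested.

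The TOM complex held the 2 largest falls of any member in HD-het against control cells, those of Tomm22 and Tomm5. In that comparison 6 of its 7 tested subunits, all but the receptor Tomm20, were lower and none was higher. This stood beside 29.1% and 31% of all tested genes. The median log2 fold change was -0.94, and with the offsets 5 stayed lower, with a median of -0.73. Tomm22, the central receptor that also ties the pores together, had 159, 136 and 162 CPM in the control libraries, 52.5, 45.8 and 56.7 CPM in the HD-het libraries and 136, 144 and 154 CPM in the HD-homo libraries. Every HD-het library lay far below the lowest library of the other lines, while control and HD-homo libraries overlapped. The level of Tomm22 was 2.95-fold lower in HD-het cells than in control (log2 fold change -1.56 ± 0.10 SE, edgeR adjusted p = 5.89e-07) and 2.81-fold higher in HD-homo cells than in HD-het (edgeR adjusted p = 3.42e-07). Its log2 fold change in HD-homo against control cells was -0.07, with a 95% interval of -0.29 to 0.15.

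Tomm5, a small subunit at the pore, had 38.2, 36.7 and 42.2 CPM in the control libraries, 14.7, 12.2 and 17.0 CPM in the HD-het libraries and 39.2, 34.9 and 34.6 CPM in the HD-homo libraries. The same order of lines was seen, with HD-het apart from both others. Tomm5 was 2.68-fold lower in HD-het cells than in control (edgeR adjusted p = 3.50e-06) and 2.49-fold higher in HD-homo cells than in HD-het (edgeR adjusted p = 3.16e-06). Tomm6 and Tomm70a were also lower in HD-het cells than in control, with log2 fold changes of -1.01 and -0.78, and neither was called in HD-homo against control cells. With the offsets the log2 fold change in HD-het against control cells was -0.41 for Tomm6 (edgeR adjusted p = 0.0436). For Tomm5 it was -0.73 in place of -1.42, and 0.59 in place of 1.32 in HD-homo against HD-het cells, each still called. Tomm6 shares genomic sequence with Tomm6os, Frs3 and Usp49, so fragments in the shared part cannot be assigned to 1 gene where counting ignores strand.

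Tomm7, the small subunit that loosens the complex, had a different order, with 126, 135 and 132 CPM in the control libraries, 76.8, 94.9 and 95.2 CPM in the HD-het libraries and 209.9, 172 and 220.5 CPM in the HD-homo libraries. Here no line overlapped another: HD-het was lowest and HD-homo highest. The log2 fold change was -0.56 ± 0.11 SE in HD-het against control (edgeR adjusted p = 0.00118), 0.62 ± 0.11 SE in HD-homo against control (edgeR adjusted p = 0.000901) and 1.17 ± 0.11 SE in HD-homo against HD-het cells (edgeR adjusted p = 3.75e-06). The fall in HD-het cells did not hold with the offsets (0.03, edgeR adjusted p = 0.861).

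Tomm40, the pore itself, had 127, 145 and 127 CPM in the control libraries, 64.5, 64.5 and 79.1 CPM in the HD-het libraries and 118, 69.2 and 88.2 CPM in the HD-homo libraries. HD-het libraries lay below all control libraries, and the HD-homo libraries spread from near the HD-het level to near the control level. Tomm40 was lower in HD-het (log2 fold change -0.94 ± 0.16 SE, edgeR adjusted p = 0.000496) and in HD-homo cells (-0.54 ± 0.16 SE, edgeR adjusted p = 0.0196) than in control cells. The HD-homo call was lost when control 2 or HD-homo 3 was left out (log2 fold change -0.51 to -0.47, edgeR adjusted p = 0.0605 to 0.0691). The difference between HD-homo and HD-het cells (0.40, edgeR adjusted p = 0.0467) was lost when control 1, control 2, control 3, HD-het 1, HD-het 2, HD-homo 1 or HD-homo 3 was left out (log2 fold change 0.19 to 0.44, edgeR adjusted p = 0.0529 to 0.230) and with the offsets (0.30). Tomm20, which binds presequences, averaged 357 ± 42.4 CPM in HD-het cells (SD, n = 3), beside 401 ± 21.5 in control and 367 ± 31.5 in HD-homo cells, with overlapping libraries and no call in any comparison, except that with the offsets it was lower in HD-homo cells than in HD-het (-0.32, edgeR adjusted p = 0.0165).

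**Figure D2:**
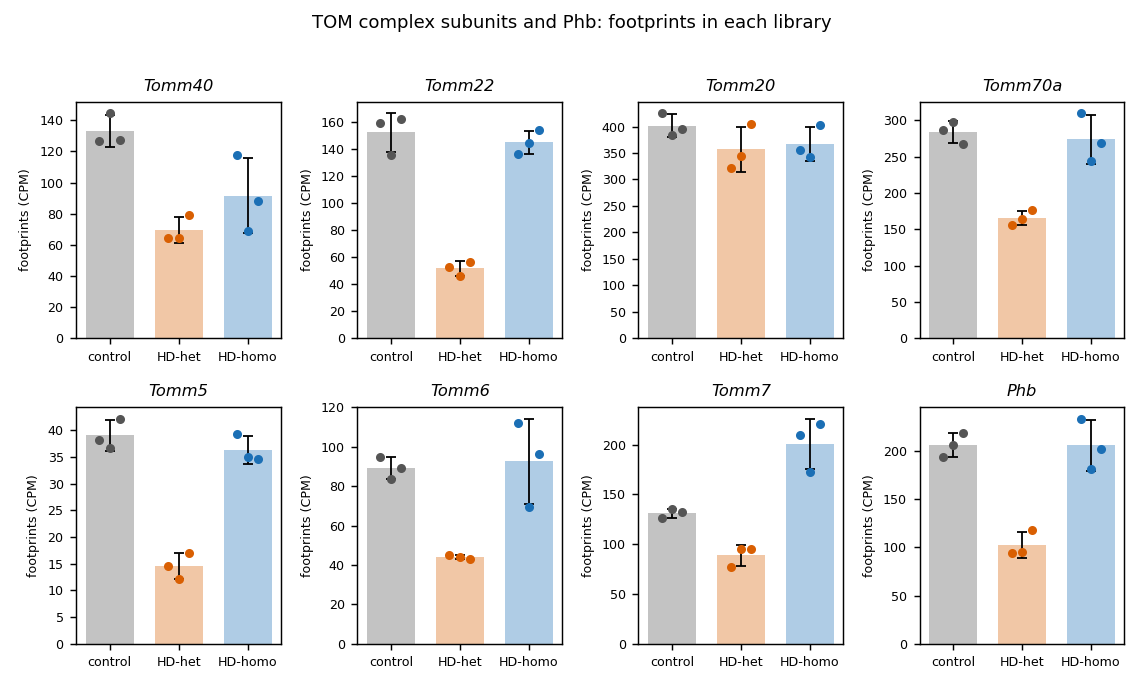
Footprints in CPM (y axis, linear from 0) of the 7 TOM complex subunits and of Phb in each line (x axis). Dots are libraries, bars the means and error bars the SD (n = 3). The HD-het libraries of Tomm22 lie between 45.8 and 56.7 CPM and all control and HD-homo libraries above 135 CPM, whereas the lines overlap for Tomm20.

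Set side by side per coding length, which allows levels of different genes to be compared, Tomm20 had the highest control level of the tested members at 923 ± 49.5 CPM per coding kb (SD, n = 3), followed by Tomm7 at 795 ± 27.6 and the small TIM chaperone Timm13 at 610.3 ± 39.4. Within the TOM complex the order then ran from Tomm6 at 402 ± 25.4 through Tomm22 at 357 ± 33.7, Tomm5 at 255 ± 18.6 and Tomm70a at 155 ± 8.40 to Tomm40 at 123 ± 9.36 CPM per coding kb. The libraries of Tomm6 and Tomm22 overlapped in that order, whereas each other pair of neighbours in the complex lay apart. In HD-het cells, Tomm22 was at 121 ± 12.9, Tomm5 at 95.5 ± 15.7 and Tomm70a at 90.3 ± 5.47 CPM per coding kb. These levels hold the trend with coding length described further on, and the log2 fold change in HD-het against control cells of Tomm5 and Tomm70a, -1.42 and -0.78, was -0.73 and -0.90 with the offsets. Ppargc1a, Polg, Timm8a2 and Tomm40l were the lowest, at 0.531 ± 0.107, 1.57 ± 0.178, 2.27 ± 0.0917 and 2.37 ± 0.183 CPM per coding kb in control cells.

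The 2 tested TOM-like genes outside the complex, Tomm34 and Tomm40l, were not called lower in HD-het cells than in control. Tomm34 encodes a cytosolic cochaperone of heat shock proteins and had 54.3, 51.1 and 51.5 CPM in the control libraries, 59.6, 54.2 and 58.9 CPM in the HD-het libraries and 87.0, 78.5 and 69.4 CPM in the HD-homo libraries. Only the HD-homo libraries stood apart, above all others. Tomm34 was higher in HD-homo than in control (log2 fold change 0.58 ± 0.09 SE, edgeR adjusted p = 0.000368) and HD-het cells (0.44, edgeR adjusted p = 0.00126). Tomm40l, a paralog of the pore gene, was near 2 CPM in control cells (2.19 ± 0.169 CPM, SD, n = 3) and lower in HD-homo cells than in HD-het (-0.93, edgeR adjusted p = 0.00136). Its lower level in HD-homo against control cells (-0.55, edgeR adjusted p = 0.0419) was lost when control 1, control 2, control 3, HD-het 2, HD-homo 2 or HD-homo 3 was left out (log2 fold change -0.60 to -0.44, edgeR adjusted p = 0.0510 to 0.118) and by DESeq2 (adjusted p = 0.0722).

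Small TIM chaperones shield hydrophobic cargo in the intermembrane space. Of the 7, 5 were lower in HD-het cells than in control and none was higher, beside 29.1% and 31% of all tested genes. The median log2 fold change was -0.48. In HD-homo against HD-het cells 6 of the 7 were higher, beside 34.6%. Their coding lengths are 249 to 300 nt. Of all tested genes under 500 nt, 47.6% were lower in the first comparison and 55.1% higher in the second. With the offsets 3 of the 7 were lower and 1 was higher in HD-het against control cells, with a median of 0.07. In HD-homo against HD-het cells the offsets left 4 higher and 1 lower. Timm13, which pairs with Timm8 proteins, had 181, 161 and 180.0 CPM in the control libraries, 74.4, 62.0 and 79.2 CPM in the HD-het libraries and 154, 148 and 142 CPM in the HD-homo libraries. The HD-het libraries lay below all others, and the control libraries lay above all HD-homo libraries. The fall in HD-het cells was 2.42-fold (log2 fold change -1.28 ± 0.10 SE, edgeR adjusted p = 1.68e-06), and -0.70 as a log2 fold change with the offsets. The difference between HD-homo and control cells, -0.23, was not called (edgeR adjusted p = 0.0725).

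Timm9 and Timm10 together form the main chaperone hexamer. Timm9 fell by 2.38-fold in HD-het against control cells (edgeR adjusted p = 1.31e-05) and was not called in HD-homo against control cells (-0.22). As a log2 fold change its fall was -1.25, and -0.77 with the offsets. Timm10 had 33.1, 31.5 and 33.5 CPM in the control libraries, 20.9, 23.8 and 25.5 CPM in the HD-het libraries and 55.7, 39.3 and 56.8 CPM in the HD-homo libraries. Its lines did not overlap, with HD-het lowest and HD-homo highest. Timm10 was higher in HD-homo cells than in control (log2 fold change 0.63 ± 0.13 SE, edgeR adjusted p = 0.00269) and lower in HD-het cells than in control (-0.48, edgeR adjusted p = 0.00964), but the fall in HD-het cells turned to 0.07 with the GC and coding length offsets (edgeR adjusted p = 0.679).

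Timm8a1, the mouse counterpart of the gene mutated in a human deafness-dystonia syndrome, averaged 16.7 ± 1.81 CPM in HD-het cells (SD, n = 3), beside 29.6 ± 2.11 in control and 33.9 ± 4.34 in HD-homo cells, and its fall in HD-het against control cells was 1.77-fold (edgeR adjusted p = 0.000127). As a log2 fold change this fall was -0.82, and -0.37 with the offsets (edgeR adjusted p = 0.0189). Its near-copy Timm8a2 stayed under 1 CPM and was called in no comparison, and short fragments may not be separable between the 2 genes. Timm8b had a log2 fold change of -0.31 in HD-het against control cells (edgeR adjusted p = 0.00815), which turned to 0.22 with the offsets (edgeR adjusted p = 0.0383), so no direction is given for it. In HD-homo against HD-het cells Timm8b was higher (0.21, edgeR adjusted p = 0.0482), which was lost when control 1, control 2, control 3, HD-het 1, HD-het 2, HD-homo 1 or HD-homo 2 was left out (log2 fold change 0.17 to 0.21, edgeR adjusted p = 0.0556 to 0.144) and turned to -0.35 with the offsets (edgeR adjusted p = 0.00252). Timm10b had a higher level in HD-homo cells than in HD-het (0.29, edgeR adjusted p = 0.0220), which was lost when HD-het 1, HD-het 2 or HD-homo 3 was left out (log2 fold change 0.22 to 0.29, edgeR adjusted p = 0.0553 to 0.0886) and which turned to -0.20 with the offsets.

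The inner membrane translocases did not move in 1 direction. Of the TIM22 complex, Timm22, its channel, was lower in HD-het cells than in control (log2 fold change -0.28, edgeR adjusted p = 0.0305), a call lost when control 2, control 3, HD-het 1 or HD-het 2 was left out (log2 fold change -0.29 to -0.24, edgeR adjusted p = 0.0623 to 0.110) and with the offsets (-0.06). Timm29, its subunit facing the intermembrane space, was called in no comparison. Of the 6 tested genes of the TIM23 complex and motor, 3 were lower and 1 was higher in HD-het against control cells. This stood beside 29.1% and 31% of all tested genes, and with the offsets 1 was lower and 2 were higher.

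Timm44, which tethers the import motor to the channel, had 69.9, 67.6 and 70.2 CPM in the control libraries, 40.4, 39.6 and 48.0 CPM in the HD-het libraries and 50.6, 57.5 and 51.2 CPM in the HD-homo libraries. No line overlapped another, with control highest and HD-het lowest. Against control cells the log2 fold change was -0.70 ± 0.09 SE in HD-het (edgeR adjusted p = 7.73e-05) and -0.38 ± 0.09 SE in HD-homo cells (edgeR adjusted p = 0.00623). Timm21, which links the TOM and TIM23 complexes, went the other way with 8.21, 7.76 and 8.92 CPM in the control libraries, 12.4, 11.1 and 13.6 CPM in the HD-het libraries and 7.29, 7.92 and 7.76 CPM in the HD-homo libraries. The HD-het libraries lay above all others (log2 fold change against control 0.57 ± 0.11 SE, edgeR adjusted p = 0.00114, and HD-homo against HD-het -0.69, edgeR adjusted p = 0.000256).

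Timm17a and Timm17b are alternative versions of the same TIM23 subunit. Timm17a had 221, 197 and 177 CPM in the control libraries, 223, 192 and 217 CPM in the HD-het libraries and 155, 150.0 and 162 CPM in the HD-homo libraries. The HD-homo libraries lay below all others, with log2 fold changes of -0.35 against control (edgeR adjusted p = 0.0109) and -0.44 against HD-het cells (edgeR adjusted p = 0.00174). Timm17b, at 32.6 ± 2.17 CPM in HD-homo cells (SD, n = 3) and 22.3 ± 1.03 in control cells, was instead higher in HD-homo cells than in control (0.55, edgeR adjusted p = 0.00107). Its lower level in HD-het against control cells (-0.31, edgeR adjusted p = 0.0237) was lost when control 1, control 3 or HD-het 3 was left out (log2 fold change -0.32 to -0.24, edgeR adjusted p = 0.0523 to 0.0727) and with the offsets (-0.02). The channel gene Timm23 was higher in HD-homo cells than in HD-het (0.33, edgeR adjusted p = 0.0271), with overlapping libraries and a call lost when HD-het 1, HD-het 2 or HD-homo 3 was left out (log2 fold change 0.22 to 0.30, edgeR adjusted p = 0.0791 to 0.115) and with the offsets (0.10). The receptor Timm50 was lower in HD-het cells than in control (-0.34, edgeR adjusted p = 0.0165), a call lost when control 2, HD-het 1 or HD-het 2 was left out (log2 fold change -0.32 to -0.31, edgeR adjusted p = 0.0516 to 0.0564) and with the offsets (-0.19).

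The prohibitins fell together in HD-het cells. Phb had 193, 206 and 218 CPM in the control libraries, 93.8, 95.3 and 119 CPM in the HD-het libraries and 234, 181 and 202 CPM in the HD-homo libraries. Phb2, its partner in the ring, had 315, 261 and 375 CPM in the control libraries, 169.5, 149 and 179 CPM in the HD-het libraries and 309, 337 and 393 CPM in the HD-homo libraries. For each gene the HD-het libraries lay below all others, and control and HD-homo libraries overlapped. Against control cells the fall was 2.01-fold for Phb (edgeR adjusted p = 2.76e-05) and 1.91-fold for Phb2 (edgeR adjusted p = 0.000139), and in HD-homo against HD-het cells the rise was 2.01-fold and 2.09-fold (edgeR adjusted p = 1.75e-05 and 3.76e-05). In HD-homo against control cells the log2 fold change was -0.00154 for Phb (95% interval -0.26 to 0.25) and 0.13 for Phb2 (95% interval -0.17 to 0.42).

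Of the 3 fusion genes, Mfn1 was called lower in HD-het and Opa1 in HD-homo cells, each against control, and Mfn2 was called in no comparison. Mfn2, an outer membrane mitofusin that also tethers the endoplasmic reticulum, had 56.1, 53.9 and 55.8 CPM in the control libraries, 57.6, 54.5 and 57.5 CPM in the HD-het libraries and 56.4, 55.1 and 56.7 CPM in the HD-homo libraries. These 9 values lay within a few CPM of each other. Against control, the log2 fold change was 0.03 for HD-het (95% interval -0.12 to 0.19) and 0.02 for HD-homo cells (95% interval -0.14 to 0.18). Mfn1, the other mitofusin, had 52.1, 56.2 and 54.6 CPM in the control libraries, 44.6, 50.6 and 43.0 CPM in the HD-het libraries and 59.3, 59.5 and 66.4 CPM in the HD-homo libraries. HD-het libraries were lowest and HD-homo libraries highest, without overlap. Mfn1 was higher in HD-homo cells than in HD-het (0.42, edgeR adjusted p = 0.00140), and its lower level in HD-het cells than in control (-0.23, edgeR adjusted p = 0.0389) was lost when control 2, control 3, HD-het 1 or HD-het 3 was left out (log2 fold change -0.24 to -0.21, edgeR adjusted p = 0.0844 to 0.116). Opa1, which fuses the inner membrane and shapes the cristae, had 51.6, 53.2 and 59.9 CPM in the control libraries, 44.3, 46.2 and 52.3 CPM in the HD-het libraries and 39.2, 46.3 and 43.0 CPM in the HD-homo libraries. The HD-homo libraries lay below all control libraries, and the HD-het libraries overlapped with both lines. Opa1 was lower in HD-homo cells than in control (log2 fold change -0.36 ± 0.10 SE, edgeR adjusted p = 0.0124), a call lost when control 3 was left out (log2 fold change -0.29, edgeR adjusted p = 0.0545).

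The genes of fission did not move in 1 direction. Dnm1l, the GTPase that constricts the membranes, had 158, 153 and 154 CPM in the control libraries, 129.6, 137 and 120.4 CPM in the HD-het libraries and 138, 157 and 139 CPM in the HD-homo libraries. HD-het libraries lay below all control libraries, and HD-homo libraries overlapped with control. Its log2 fold change in HD-het against control cells was -0.27 ± 0.08 SE (edgeR adjusted p = 0.0151). Mff, the main adaptor that brings Dnm1l to mitochondria, had 44.2, 43.8 and 42.5 CPM in the control libraries, 64.6, 64.2 and 52.2 CPM in the HD-het libraries and 47.7, 54.5 and 47.2 CPM in the HD-homo libraries. All HD-het libraries lay above all control libraries, and the HD-het and HD-homo libraries overlapped. Mff was 1.39-fold higher in HD-het cells than in control (log2 fold change 0.47 ± 0.10 SE, edgeR adjusted p = 0.00178). The lower level in HD-homo cells than in HD-het (-0.28, edgeR adjusted p = 0.0284) was lost when HD-het 1, HD-het 2, HD-homo 1 or HD-homo 3 was left out (log2 fold change -0.24 to -0.23, edgeR adjusted p = 0.0767 to 0.106) and with total counts (-0.20, edgeR adjusted p = 0.15).

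Fis1, a tail-anchored outer membrane protein, had 108, 93.8 and 120.4 CPM in the control libraries, 84.0, 87.1 and 76.8 CPM in the HD-het libraries and 93.7, 135 and 137 CPM in the HD-homo libraries. HD-het libraries lay below all others, and 1 HD-homo library lay just below the lowest control value. Fis1 was lower in HD-het cells than in control (-0.38, edgeR adjusted p = 0.0387), a call lost when control 1, control 3, HD-het 1, HD-het 2 or HD-het 3 was left out (log2 fold change -0.43 to -0.29, edgeR adjusted p = 0.0539 to 0.134) and with the offsets (0.02). It was higher in HD-homo cells than in HD-het (0.56, edgeR adjusted p = 0.00460), but not with the offsets (0.16, edgeR adjusted p = 0.321).

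**Figure D3:**
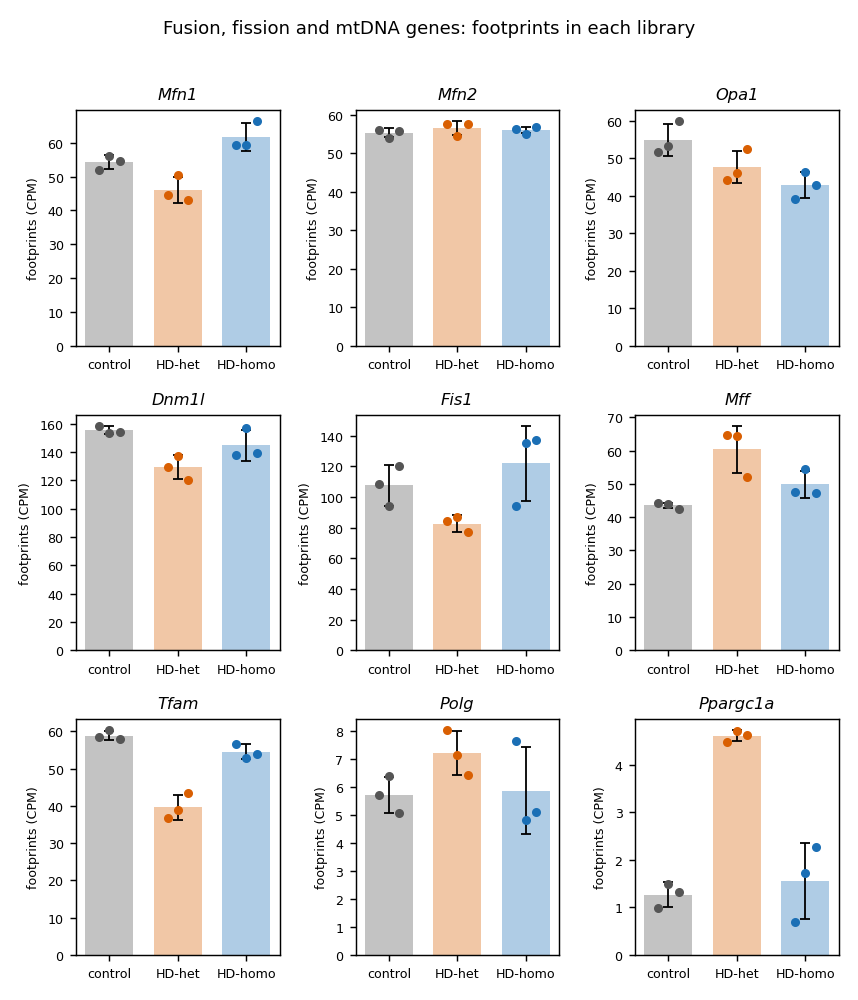
Footprints in CPM (y axes, linear from 0 and scaled for each gene) of the genes of fusion (top row), fission (middle row) and mitochondrial DNA and biogenesis (bottom row) in each line (x axis). Dots are libraries, bars the means and error bars the SD (n = 3). The lines coincide for Mfn2, HD-het is lowest for Tfam, and HD-het stands above the other lines for Ppargc1a, at 4.48 to 4.70 CPM.

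The genes for mitochondrial DNA and biogenesis split. Tfam, the protein that coats mitochondrial DNA and starts its transcription, had 58.4, 60.2 and 58.0 CPM in the control libraries, 36.6, 38.8 and 43.3 CPM in the HD-het libraries and 56.7, 52.8 and 54.0 CPM in the HD-homo libraries. HD-het libraries lay well below all others, and HD-homo libraries just below control. Tfam was 1.49-fold lower in HD-het cells than in control (log2 fold change -0.57 ± 0.08 SE, edgeR adjusted p = 0.000136) and 1.38-fold higher in HD-homo cells than in HD-het (edgeR adjusted p = 0.000463), and its difference of -0.11 between HD-homo and control cells was not called. Polg, the catalytic subunit of the mitochondrial DNA polymerase, had 5.69, 6.38 and 5.08 CPM in the control libraries, 8.01, 7.15 and 6.43 CPM in the HD-het libraries and 7.65, 4.82 and 5.10 CPM in the HD-homo libraries. HD-het libraries lay just above all control libraries, without a call (0.33, edgeR adjusted p = 0.138).

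Ppargc1a, which encodes PGC-1alpha and has been studied in Huntington disease as a regulator of mitochondrial genes, was scarce in each line, with 0.993, 1.5 and 1.32 CPM in the control libraries, 4.48, 4.70 and 4.63 CPM in the HD-het libraries and 0.695, 1.72 and 2.26 CPM in the HD-homo libraries. The HD-het libraries agreed closely with each other and lay above all others, while the HD-homo libraries ranged more widely around the control level. Ppargc1a was 3.57-fold higher in HD-het cells than in control (log2 fold change 1.84 ± 0.31 SE, edgeR adjusted p = 0.000426), the largest rise of any member in that comparison. In HD-homo against HD-het cells its log2 fold change was -1.62 ± 0.31 SE (edgeR adjusted p = 0.000784), and in HD-homo against control cells it was 0.22 with a wide 95% interval of -0.54 to 0.98. Tfam, a gene that PGC-1alpha is known to coactivate, was lower in the line in which Ppargc1a was higher, and a link between them was not tested. Of the partner genes read below, Pprc1 (-0.67, edgeR adjusted p = 4.05e-05) and Nrf1 (-0.30, edgeR adjusted p = 0.0105) were also lower in HD-het cells than in control. Ppargc1b, Gabpa and Esrra were not called in that comparison.

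Other genes of the same pathways were read from lists written for this purpose. Of 65 tested partners, HD-het against control cells showed 11 higher (16.9%) and 23 lower (35.4%), beside 31% and 29.1% of all tested genes. In HD-homo against control cells 8 were higher (12.3%) and 12 lower (18.5%), beside 23.3% and 22.3%. Between HD-homo and HD-het cells 26 were higher (40%) and 14 lower (21.5%), beside 34.6% and 32.8%. The median log2 fold change of the partners in HD-het against control cells was -0.13, beside -0.31 for the members. By role, 10 of 24 import partners, 7 of 24 dynamics partners and 6 of 17 partners in mitochondrial DNA and biogenesis were lower in HD-het cells, that is 41.7%, 29.2% and 35.3%, beside 29.1% of all tested genes, so the share of dynamics partners was at the background. With the offsets, in the same order of roles, 10, 7 and 8 were lower, beside 29.5% of all tested genes. Then 7, 8 and 1 were higher in place of 4, 6 and 1, beside 31.7%. In HD-homo against HD-het cells 9, 9 and 8 were higher and 5, 6 and 3 lower. There the offsets gave 10, 5 and 7 higher and 8, 8 and 1 lower, beside 35.4% and 32.4%.

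Among the import partners, Dnajc15, a J protein that can join the TIM23 motor, held no count in any control library but averaged 8.97 ± 0.647 CPM in HD-homo cells (SD, n = 3) and 16.0 ± 1.27 CPM in HD-het cells. Taken against a floor of 3 counts in each control library, HD-het cells were at least 161-fold higher and HD-homo cells at least 90.1-fold higher. Gfer and Chchd4 are partners in the disulfide relay that traps the small TIM chaperones in the intermembrane space. Among the partners that reached 10 CPM without overlap between libraries, Gfer had the largest fall in HD-het against control cells, from 34.3 ± 1.56 to 16.9 ± 5.16 CPM (log2 fold change -1.03 ± 0.19 SE, edgeR adjusted p = 0.000581). By the same measure Chchd4 had the largest rise in HD-homo against HD-het cells, from 25.1 ± 3.04 to 56.8 ± 10.8 CPM (1.18 ± 0.14 SE, edgeR adjusted p = 1.90e-05). With the offsets these log2 fold changes were -0.76 for Gfer and 0.82 for Chchd4, each still called. Inf2, a formin whose actin filaments help constrict mitochondria, was lowest in HD-homo cells at 47.1 ± 3.00 CPM, beside 107 ± 8.32 CPM in control and 131 ± 5.61 CPM in HD-het cells (log2 fold change against control -1.19 ± 0.09 SE, edgeR adjusted p = 7.35e-07). With the offsets the value of Inf2 against control was -0.99. Mgme1, an exonuclease for mitochondrial DNA, rose in HD-homo against control cells from 7.28 ± 0.555 to 11.5 ± 1.36 CPM (0.66 ± 0.15 SE, edgeR adjusted p = 0.00392). That was the largest rise among partners above 10 CPM in HD-homo cells. Of those below it Dnajc15 rose more, and so did the metaxin gene Mtx3, named after its values were seen, from 2.84 ± 0.233 to 6.00 ± 0.671 CPM (1.07 ± 0.15 SE, edgeR adjusted p = 0.000146).

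Many members are short, and a larger share of the short than of the long genes was lower in HD-het cells. Over all tested genes with a coding length under 500 nt, 47.6% of 1104 were lower in HD-het cells than in control, beside 27.2% of 11340 longer genes. Among the members, 10 of 13 shorter than 500 nt and 11 of 22 longer ones were lower. In HD-homo against HD-het cells, 55.1% of the short and 32.5% of the longer tested genes were higher, and 11 of 13 short and 10 of 22 longer members. The correlation of log2 fold change with coding length in HD-het against control cells was 0.177 (Spearman) over 12444 genes and 0.456 over the 35 members. These genes share the same libraries and are no independent replicates.

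The counts were therefore refitted with offsets that take each library's trend in GC content and coding length out, a setting chosen after the data were seen. Then 15 members were lower and 7 higher in HD-het against control cells, beside 29.5% and 31.7% of all tested genes, and the median log2 fold change of the members was -0.04. In the TOM complex 5 of 7 stayed lower, with a median of -0.73, and both prohibitins stayed lower, with a median of -0.79. Of the small TIM chaperones 3 were lower and 1 was higher, with a median of 0.07. Tomm22 (-1.29, edgeR adjusted p = 1.47e-06), Tomm70a (-0.90), Tomm40 (-0.78), Timm9 (-0.77), Tomm5 (-0.73), Timm13 (-0.70), Timm44 (-0.69) and Tfam (-0.50) were lower in HD-het cells than in control in each fit, and Ppargc1a (1.68), Timm21 (0.62) and Mff (0.51) were higher in each. Called with the offsets alone were Opa1 (-0.36) as lower and Tomm40l (0.49), Tomm34 (0.29) and Timm17a (0.26) as higher, and Timm8b turned from lower to higher. The 2 largest falls were then those of Tomm22 and Tomm70a. The fall became larger for Dnm1l (-0.41) and Mfn1 (-0.37).

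In HD-homo against HD-het cells the offsets left 17 members higher and 7 lower, beside 35.4% and 32.4% of all tested genes, with a median log2 fold change of 0.30. The rise of Tomm22 was 1.13. Smaller values were found for Tomm5 (0.59 in place of 1.32), Tomm6 (0.46 in place of 1.07), Tomm7 (0.45 in place of 1.17), Timm8a1 (0.52 in place of 1.02), Timm9 (0.50 in place of 1.03), Timm10 (0.55 in place of 1.11), Timm13 (0.49 in place of 1.04) and Timm17b (0.54 in place of 0.85), each still called. Of the small TIM chaperones 4 were then higher and 1 was lower. Dnm1l was called with the offsets alone (0.33), as was Tomm20, and the difference of Timm17a grew to -0.75. In HD-homo against control cells 4 members were higher and 5 lower, beside 25.2% and 21.6%.

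**Figure D4:**
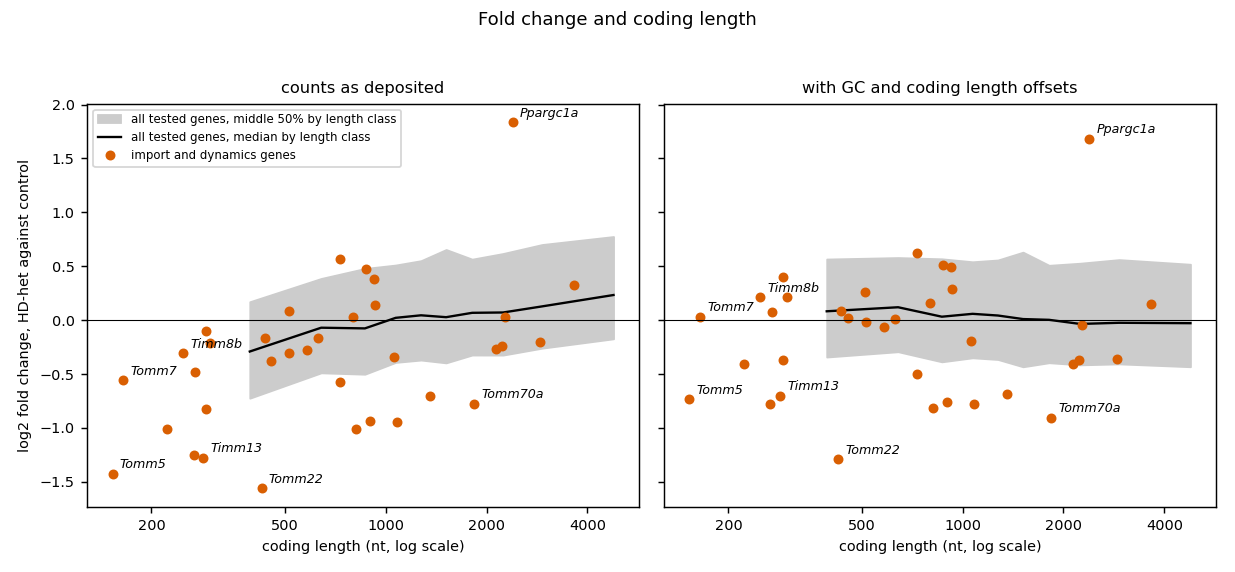
Log2 fold change in HD-het against control cells (y axis) against coding length in nt (x axis, log scale), from the counts as deposited (left) and with GC and coding length offsets (right). Orange points are the 35 tested members, and the line and band are the median and the middle 50% of all tested genes in 10 classes of coding length, drawn at the median length of each class. The line rises from -0.29 in the shortest class to 0.23 in the longest on the left and is nearly flat on the right, where Tomm22 and Tomm70a remain low and Tomm7 and Timm8b do not.

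Since many of these genes fell in HD-het cells, their promoters were searched for motifs of factors known to regulate nuclear genes for mitochondria. RefSeq promoters of build GRCm38.p6, from 250 bases before to 50 after the start, were given for 34 of the 37 members, not for Timm21, Tomm40l and Tomm7. The ETS motif CCGGAAG, read on either strand, was held by 15 of the 34, which is 44.1%, and by 12.94% of 17491 coding genes. The NRF1 motif GCGCATGC, also read on both strands, was held by 2 members (Opa1 and Timm13), which is 5.9%, beside 3.93% of coding genes. The YY1 motif ATGGCGG, read likewise, was held by 3 (Timm44, Timm50 and Timm8b), which is 8.8%, beside 6.05%. These shares come from unlike sets: the 34 include the antisense transcript Tomm6os, and the coding genes were not limited to those tested here. The share among tested genes was not taken. Of the tested members, 9 of 15 with the ETS motif and 11 of 17 without it were lower in HD-het against control cells, with median log2 fold changes of -0.27 and -0.34. A match is a run of letters, not a measured binding site.

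Shown here are the 120 bases before the start of 4 members that were lower in HD-het cells and hold the ETS motif. These are a receptor pair of the TOM complex, a prohibitin and Tfam. Those of Tomm5, whose fall without offsets came next after that of Tomm22, are shown as well. Tomm5 holds no exact match to CCGGAAG on either strand, and looser forms of the motif were not searched. Capitals mark the motif on either strand. In Tomm22 the matches of both strands overlap in a palindrome.
Tomm22: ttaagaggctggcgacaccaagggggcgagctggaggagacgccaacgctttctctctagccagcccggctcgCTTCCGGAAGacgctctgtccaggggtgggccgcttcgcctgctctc
Tomm70a: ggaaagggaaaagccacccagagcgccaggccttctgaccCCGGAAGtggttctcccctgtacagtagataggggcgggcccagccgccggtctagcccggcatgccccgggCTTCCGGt
Phb2: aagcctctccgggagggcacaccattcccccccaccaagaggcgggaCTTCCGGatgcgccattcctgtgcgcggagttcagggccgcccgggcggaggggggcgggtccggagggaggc
Tfam: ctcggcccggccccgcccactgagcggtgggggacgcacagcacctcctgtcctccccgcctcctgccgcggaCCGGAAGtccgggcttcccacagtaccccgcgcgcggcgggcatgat
Tomm5: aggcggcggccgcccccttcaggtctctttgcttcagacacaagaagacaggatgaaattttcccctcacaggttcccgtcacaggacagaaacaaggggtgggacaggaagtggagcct
These lie at chr15:79670748-79670867 on the plus strand (Tomm22), chr16:57121594-57121713 on the plus strand (Tomm70a), chr6:124712169-124712288 on the plus strand (Phb2), chr10:71238045-71238164 on the minus strand (Tfam) and chr4:45108114-45108233 on the minus strand (Tomm5), each read in the direction of the gene.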

How the data were processed

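Ribosome footprints of 9 libraries (3 lines, 3 libraries each) were analysed. The authors deposited raw counts of footprints per gene symbol in 36410 rows, without normalization or pooling. The submitters' processing notes name cutadapt, Bowtie 1.0.1 and build mm10, without their roles. How fragments were counted, on which annotation and with what strand rule is not given in the sources used here. Column names matched the 9 samples, and 19597 rows held 0 in every library. No 2 libraries of a line agreed within sampling noise (chi-square per gene 8.14 to 52.8).

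In R 4.3.3, edgeR 4.0.16 with limma 3.58.1 was fitted to all 9 libraries and each comparison was tested by its quasi-likelihood F test, with TMM factors, the filterByExpr filter and group means as the only terms, a standard choice, as the paper's methods name no test per gene. P-values were adjusted by Benjamini-Hochberg over the 12678 tested genes, and 95% intervals used the degrees of freedom of that test. The members and the lists were chosen with earlier results of these data known. Library values are given for the 11 genes named in the rule and, in each comparison, for up to 3 members that rose most and up to 3 that fell most among those called, without overlap and with at least 10 CPM in the higher line. 1 partner gene was named in each direction by the same rule.

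The partner and marker lists, the roles of the members and the choice of motifs come from general knowledge. Coding lengths are those of the principal transcript in GENCODE M21 and were found for 98.2% of the tested genes. They bear on levels per kb and on the loess offsets (span 0.5). The alternatives tried were total counts or RLE size factors in place of TMM, DESeq2 1.42.0, a table with no filter or with a minimum of 10 counts in each library, fits of the 6 libraries of a pair, replicate number as a block, and the removal of each library in turn. The replicate numbers showed no sign of pairing libraries across lines. Correlations of deviations from the line means ran from -0.419 to 0.199 over the 9 pairs with the same number. Over the 18 others they ran from -0.339 to 0.454. Such few and dependent values cannot exclude a shared batch. Mouse processed pseudogenes and near-copies such as Timm8a1 and Timm8a2 could share short fragments, as could genes that overlap, among them Timm9 with Tomm20l and Timm13 with Tmprss9.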

Additional observations from a re-analysis of the deposited data

How the results depend on the processing

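The counts of members higher and lower stayed within 1.5 times their value in each comparison under RLE size factors, total counts, DESeq2, either filter and the 6-library fits. Exceptions arose from the GC and coding length offsets, under which 7 in place of 3 members were higher in HD-het against control cells, and from leaving out 1 library, under which 3 to 6 members were lower in HD-homo against control cells, where 5 were with all libraries. With the replicate number as a block, 3 members were higher and 19 lower in HD-het against control, 4 and 4 in HD-homo against control, and 19 and 5 in HD-homo against HD-het cells, and 28 differed among the lines. Among single members this block ended the calls of Fis1, Mfn1 and Timm22 (HD-het against control), Tomm40l (HD-homo against control), and Timm8b and Tomm40 (HD-homo against HD-het). The numbers showed no sign of pairing the libraries. Of 24, 9 and 26 members called in these comparisons, 16, 6 and 20 kept their call in every setting. Matching shares of all tested genes, for calls kept and for the block, are not given here. These counts therefore do not set the members apart from other genes.

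With the offsets the log2 fold change turned sign for Fis1 (0.0197), Timm10 (0.0723), Timm8b (0.22) and Tomm7 (0.0318) in HD-het against control cells, and for Timm10b (-0.20) and Timm8b (-0.35) in HD-homo against HD-het cells. The offsets remove a trend over all genes by construction, and the cause of that trend was not tested. RLE size factors also ended the HD-het call of Mfn1 and the HD-homo against HD-het calls of Timm8b and Tomm40. The minimum of 10 counts in each library ended the same calls and the HD-het call of Fis1. DESeq2 ended the calls of Tomm40l (HD-homo against control) and Timm8b (HD-homo against HD-het), total counts that of Mff, no filter that of Timm8b, and the 6-library fits those of Timm10b, Timm23, Timm8b and Tomm40 (each HD-homo against HD-het). At the lowest levels, as for Ppargc1a, Polg, Timm8a2 and Tomm40l, depth limits what can be seen.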
